A study of Rattus norvegicus with 18 samples.

Results

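Signal of 7 genes of the cholesterol pathway was compared across 6 treatment groups of rat jejunum. The genes were listed by name as enzymes of cholesterol synthesis and targets of the transcription factor SREBP2: Hmgcs1, Idi1, Fdps, Fdft1, Sqle, Cyp51, Msmo1 and Insig1. Each was measured by the probe sets to which the array annotation gives that gene symbol and no other. By that rule 7 of the 8 genes, with 10 probe sets, were found among 14217 genes measured on the arrays, and Hmgcs1 is not analysed here. The samples were mucosal scrapings of the jejunum of male Sprague Dawley rats aged 6 to 8 weeks, profiled on 18 Affymetrix arrays with 3 arrays in each group. One group received vehicle, which was 0.5% methyl cellulose. The others were gavaged once a day with an inhibitor of the cell cycle kinases CDK4 and CDK6. Abemaciclib was given at 36 mg/kg/day to one group and at 120 mg/kg/day to another, palbociclib at 30 and at 100 mg/kg/day, and a single ribociclib group received 300 mg/kg/day. The title of the series asks whether the intestinal toxicity of these compounds depends on inhibition of CDK4 and CDK6.

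Several features of the design bear on every comparison. Palbociclib was given in methylcellulose, as the vehicle group was, whereas abemaciclib and ribociclib were given in 0.5% hydroxypropyl methylcellulose with 0.25% tween 80 in a 10 mM citrate buffer at pH 3. A difference of those compounds from vehicle or from palbociclib and an effect of the liquid they were given in cannot be told apart. The series had 10 rats in each group and dosing for 4 or 15 days. Neither the duration nor the animal behind each array is given in the labels. The p-values therefore measure the spread between these arrays, part of which may be technical. The title of abemaciclib 120 replicate B gives its dose as 100, while its treatment label gives 120, which was used. In tissue scrapings, fewer cells of a type and less RNA per cell cannot be told apart.

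Cells make cholesterol from acetyl-CoA by way of mevalonate, isoprenoid diphosphates, squalene and lanosterol. When the endoplasmic reticulum is poor in sterol, the escort protein SCAP carries SREBP2 to the Golgi apparatus, where proteases release the part that enters the nucleus and turns on genes of the route. Insig proteins hold the SCAP complex back when sterol is plentiful, and Insig1 is itself a target of SREBP, which closes a feedback loop. The intestine both makes cholesterol and takes it up from the diet, and dividing cells need it for membranes.

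Promoter windows of 5 of the 7 genes are held in the RefSeq table of the GRCr8 rat assembly, those of Idi1, Fdps, Cyp51, Msmo1 and Insig1. SREBP proteins are known to act together with the factor NF-Y, which binds the CCAAT box, and with Sp1, which binds GC boxes. The windows below are shown because 4 of these 5 promoters hold a CCAAT box within 250 bases before the start, on either strand, and their genes are compared throughout. Capitals mark each CCAAT or its reverse complement ATTGG. Each sequence runs 5′ to 3′ on the strand of the gene, and positions follow in the next paragraph.
Idi1: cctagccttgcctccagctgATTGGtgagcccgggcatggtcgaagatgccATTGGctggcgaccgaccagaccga
Fdps: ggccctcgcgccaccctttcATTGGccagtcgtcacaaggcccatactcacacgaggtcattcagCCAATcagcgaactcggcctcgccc
Msmo1: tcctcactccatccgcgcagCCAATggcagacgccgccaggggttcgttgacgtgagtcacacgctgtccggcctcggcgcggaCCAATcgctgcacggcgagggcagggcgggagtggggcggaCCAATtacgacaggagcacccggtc
Insig1: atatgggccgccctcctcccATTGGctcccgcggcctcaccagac

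The Idi1 window lies at chr17:66547535-66547610 on the minus strand and ends 11 bases before the start. The Fdps window lies at chr2:176804877-176804966 on the minus strand and ends 61 bases before the start. The Msmo1 window lies at chr16:29746920-29747069 on the plus strand, holds 3 CCAAT boxes and ends 44 bases before the start. The Insig1 window lies at chr4:8057938-8057982 on the minus strand and ends 169 bases before the start. Among all 27457 promoters of the table, 34.3% hold CCAAT on either strand in the same 250 bases. The GC box GGGCGG was found in 4 of the 5 (Fdps, Cyp51, Msmo1 and Insig1) and in 32.4% of all promoters. The E-box CANNTG was found in 4 of the 5 (Idi1, Fdps, Msmo1 and Insig1) and in 65.2%. The sterol regulatory element, searched as TCACNCCAC on both strands, was found in 0 of the 5 and in 0.976% of all promoters. No match of one motif in these promoters overlapped a match of another. A match describes letters and is not a measured binding site, and a window without a match says nothing about a factor.

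The deposited values are log2 signals, so a difference of 1 is a doubling. They ran from 2.86 to 14.34. No 2 arrays held identical values, and pairs of arrays correlated between 0.918 and 0.993. Enterocyte markers had high signal: the sum of 11 measured markers, such as Fabp1 and Vil1, was 16.67 to 17.24 on the 18 arrays (log2). These markers cannot tell jejunum from other parts of the small intestine. The 3 measured ileal markers summed to 12.5 to 14.81, and 0 of them lay below the array median on all arrays, so the region on the label was not checked. Of 5 hepatocyte markers, 4, albumin among them, lay below the array median on all arrays. The arrays carry no count of molecules, and their number limits the precision.

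Abemaciclib at 120 mg/kg/day gave the most calls among the 7 genes. Cyp51 rose 4.44-fold against vehicle, Msmo1 3.56-fold, Sqle 3.44-fold and Fdps 2.54-fold. The isomerase Idi1 was 4.41-fold higher and squalene synthase Fdft1 2.1-fold higher, and neither passed the test. Thus 4 of 7 genes rose and 0 fell, at a Benjamini-Hochberg adjusted p under 0.05 in limma's fit over all 14217 genes, of which 9.6% rose and 8.41% fell. The median difference of the 7 was 1.78 on the log2 scale, against -0.02 over all genes. In 6 of the 7, all 3 abemaciclib arrays lay above all 3 vehicle arrays, which held for 18.6% of all genes. The count of 4 was 6 in the fit to the 2 groups alone, with Idi1 and Fdft1 added. It was 1 without vehicle replicate C or abemaciclib 120 replicate A, and 2 without vehicle replicate A, vehicle replicate B or abemaciclib 120 replicate C. Over all genes 2560 were called in the main fit and 2841 in the fit to the 2 groups alone. Without those arrays, in the order named, 1473, 1349, 1791, 1938 and 2072 were called.

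The make-up of the tissue moved in the same group. The summed signal of 12 crypt and dividing cell markers was 12.04 to 12.59 with abemaciclib at 120 mg/kg/day and 9.47 to 10.07 with vehicle (log2), and 11 of the 12 rose. The 7 crypt-base stem cell markers summed to 10.61 to 11.49 against 8.31 to 8.82, and all 7 rose, although Lgr5 and Ascl2 stayed below the array median on all arrays. The 10 T and NK cell markers summed to 9.18 to 9.94 against 12.1 to 12.56, and 8 fell. Of 10 macrophage and dendritic cell markers 4 fell and 0 rose, with a median of -1.26. The 3 measured ileal markers summed to 13.83 to 14.2 against 12.84 to 13.04, and 2 rose. The 3′ minus 5′ signal of the beta-actin control, which grows as RNA degrades, was 0.86 to 1.05 against 0.57 to 0.79 (log2). With that control as a covariate, 1 of the 4 genes, Msmo1, was still called, Fdps (adjusted p = 0.11), Sqle (0.133) and Cyp51 (0.0923) were not, and Insig1 was called in addition. Over all genes 1596 were called with the covariate and 2560 in the main fit. The part of cell make-up in the results was not tested.

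Idi1 and Fdps work on isoprenoid diphosphates. Idi1 interconverts the 5-carbon units, and Fdps joins them to farnesyl diphosphate, the last intermediate shared with the making of other isoprenoids. In each list of values below, replicates stand in the order A, B and C. Idi1 signal (log2) was 7.99, 8.69 and 8.14 with vehicle, 10.25, 9.65 and 11.35 with abemaciclib at 120 mg/kg/day, and 9.67, 7.48 and 10.16 at 36 mg/kg/day. With ribociclib Idi1 read 10.99, 7.95 and 8.81, with palbociclib at 30 mg/kg/day 6.24, 7.6 and 8.25, and at 100 mg/kg/day 7.53, 8.92 and 8.33. All abemaciclib 120 arrays stood above all vehicle arrays, while the ribociclib and abemaciclib 36 arrays spread over both sides of vehicle. The difference between abemaciclib at 120 mg/kg/day and vehicle was 2.14 (SE 0.77, 95% interval 0.52 to 3.76, adjusted p = 0.0647). The other Idi1 probe set gave 2.02 (SE 0.71) in the fit with every probe set as a feature of its own.

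Fdps was tight with vehicle, at 9.37, 9.4 and 9.48. It read 10.66, 10.61 and 11.03 with abemaciclib at 120 mg/kg/day, 10.36, 9.33 and 10.52 at 36 mg/kg/day, and 11.38, 9.25 and 9.88 with ribociclib. With palbociclib Fdps read 8.72, 9.43 and 9.37 at 30 mg/kg/day and 9.24, 10.01 and 9.73 at 100 mg/kg/day. Only ribociclib replicate A exceeded the abemaciclib 120 arrays. Fdps rose by 1.35 with abemaciclib at 120 mg/kg/day (SE 0.42, adjusted p = 0.0358). The call held in 7 of 15 alternative settings, and it was lost when any 1 array of either group was left out (adjusted p = 0.0546 to 0.109).

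Fdft1 and Sqle lead into the sterol branch. Fdft1, squalene synthase, joins farnesyl units to squalene, and Sqle, squalene epoxidase, oxidises squalene at a step known to limit the route. Fdft1 read 8.54, 8.3 and 8.43 with vehicle, 9.33, 9.07 and 10.07 with abemaciclib at 120 mg/kg/day, and 10.49, 8.91 and 8.62 with ribociclib. Both sets lay above all vehicle arrays. The Fdft1 difference was 1.07 with abemaciclib (SE 0.4, adjusted p = 0.0797) and 0.92 with ribociclib (SE 0.4, adjusted p = 0.214), so neither passed. On the other Fdft1 probe set the signal was 7, 7.03 and 7.9 with abemaciclib at 120 mg/kg/day and 6.98, 6.81 and 6.83 with vehicle, a difference of 0.44 (SE 0.34, adjusted p = 0.504 over all probe sets). On the remaining 9 arrays Fdft1 lay between 8.11 and 9.43.

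Sqle read 7.19, 6.99 and 7.13 with vehicle and 8.54, 8.36 and 9.75 with abemaciclib at 120 mg/kg/day. At 36 mg/kg/day Sqle read 8.55, 7.05 and 8.79, and with ribociclib 9.89, 7.02 and 7.89. Palbociclib gave 6.06, 6.72 and 6.94 at the lower dose and 7.02, 7.75 and 6.74 at the higher dose. Replicate B of abemaciclib 36 and of ribociclib lay within the vehicle range, and replicate A of both lay above it. Sqle rose by 1.78 with abemaciclib at 120 mg/kg/day (SE 0.6, adjusted p = 0.0485). The call held in 7 of 15 alternative settings. It was lost without vehicle replicate A, B or C (adjusted p = 0.101, 0.116 and 0.117), abemaciclib 120 replicate A (0.0884) or replicate C (0.188).

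Cyp51 and Msmo1 strip methyl groups from lanosterol and the sterols made from it. Cyp51, the lanosterol demethylase, had the narrowest vehicle values, at 9.26, 9.2 and 9.19 (SD 0.04). It read 11.53, 11.11 and 11.46 with abemaciclib at 120 mg/kg/day (mean 11.37 ± 0.22, SD, n = 3) and 10.3, 8.85 and 10.68 at 36 mg/kg/day. With ribociclib Cyp51 read 11.61, 8.76 and 10.11, with palbociclib at 30 mg/kg/day 7.61, 8.75 and 8.81, and at 100 mg/kg/day 8.67, 9.86 and 9.58. The abemaciclib 120 arrays stood clear of vehicle, palbociclib and abemaciclib 36, and ribociclib replicate A was the sole other array at that height. Cyp51 rose by 2.15 (SE 0.58, adjusted p = 0.0164), and the other Cyp51 probe set rose by 2.39 (SE 0.51, adjusted p = 0.00595 over all probe sets). The call was lost without vehicle replicate C (adjusted p = 0.0541), without abemaciclib 120 replicate A (0.0652) and with the actin covariate (0.0923).

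Msmo1, a methylsterol oxidase that acts after Cyp51, read 9.09, 8.85 and 9 with vehicle. It read 10.25, 10.55 and 11.63 with abemaciclib at 120 mg/kg/day, 10.73, 9.41 and 10.76 at 36 mg/kg/day, and 11.72, 10.45 and 10.34 with ribociclib. Palbociclib gave 8.43, 8.95 and 8.3 at 30 mg/kg/day and 9, 9.77 and 9 at 100 mg/kg/day. All 9 arrays of abemaciclib and ribociclib lay above all vehicle arrays. Msmo1 rose by 1.83 with abemaciclib at 120 mg/kg/day (SE 0.43, adjusted p = 0.00706), and this call held in all 15 alternative settings. Msmo1 also rose by 1.86 with ribociclib (SE 0.43, adjusted p = 0.0268). That call was lost without vehicle replicate A, B or C (adjusted p = 0.0686, 0.112 and 0.09). At abemaciclib 36 mg/kg/day Msmo1 was higher by 1.32 (SE 0.43, adjusted p = 0.134), with adjusted p = 0.0308 without abemaciclib 36 replicate B.

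Insig1, the sterol-sensing brake on SREBP, had a different order of groups. It read 10.8, 10.91 and 11.11 with vehicle and 12.81, 13.24 and 11.99 with ribociclib. With palbociclib Insig1 read 11.9, 11.81 and 10.88 at 30 mg/kg/day and 11.84, 11.77 and 11.92 at 100 mg/kg/day. With abemaciclib it read 11.38, 12.01 and 11.51 at 36 mg/kg/day and 11.02, 11.67 and 12.12 at 120 mg/kg/day. Ribociclib, palbociclib 100 and abemaciclib 36 each lay above all vehicle arrays, and abemaciclib 120 overlapped vehicle through replicate A. Insig1 rose 3.33-fold with ribociclib (log2 difference 1.74, SE 0.32, adjusted p = 0.00949), and this held in 14 of 15 alternative settings, the exception being the fit to the 2 groups alone (adjusted p = 0.0638). With abemaciclib at 120 mg/kg/day it was higher by 0.66 (SE 0.32, adjusted p = 0.186). With the actin covariate that Insig1 difference was 1.21 and passed (adjusted p = 0.00994). With palbociclib at 100 mg/kg/day Insig1 was higher by 0.9 (SE 0.32, adjusted p = 0.634).

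**Figure D1:**
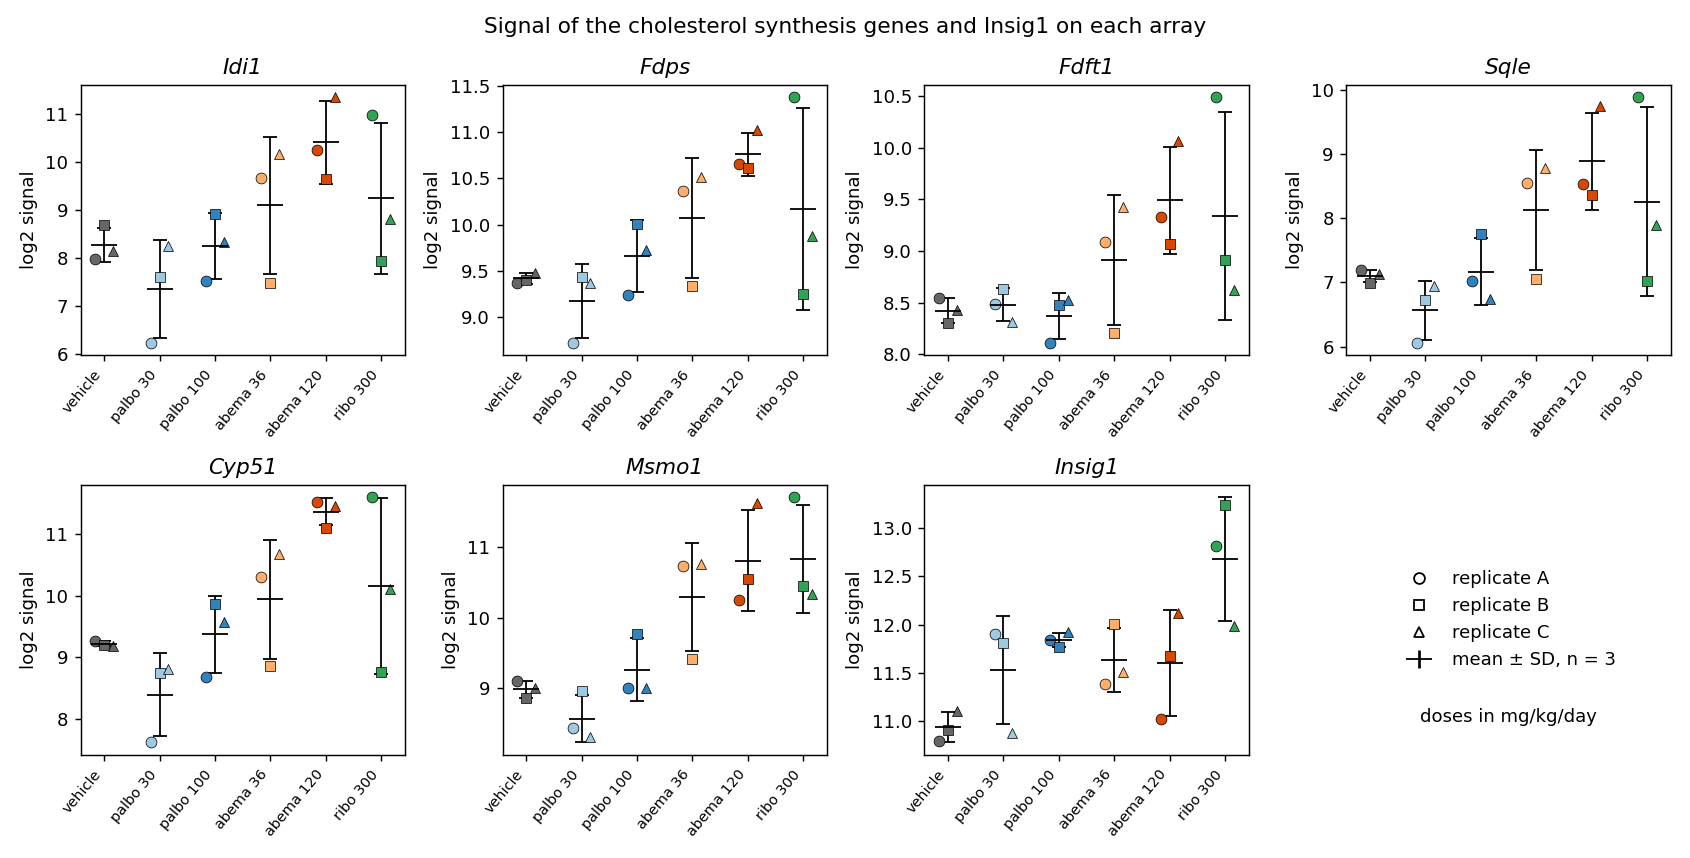
Log2 signal of each gene on the 18 arrays by treatment group (doses in mg/kg/day), with replicate letters as symbols and bars for mean ± SD (n = 3). For Cyp51 the 3 abemaciclib 120 arrays sit between 11.11 and 11.53 and the vehicle arrays between 9.19 and 9.26, while Insig1 is highest with ribociclib at 11.99 to 13.24.

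The order of group means was alike for the enzymes. Idi1, Fdps, Fdft1, Sqle and Cyp51 had their highest mean with abemaciclib at 120 mg/kg/day, followed by ribociclib. Msmo1 had ribociclib first, at 10.84, by 0.03 over abemaciclib at 120 mg/kg/day. Idi1, Fdps, Sqle, Cyp51 and Msmo1 had their lowest mean with palbociclib at 30 mg/kg/day. Neighbours in the order mostly did not differ beyond the larger of their SDs. The step from vehicle up to palbociclib 30 for Insig1 (0.59 against an SD of 0.56) and from palbociclib 100 up to ribociclib (0.84 against 0.64) did so. For Sqle the steps from palbociclib 30 to vehicle (0.53 against 0.46) and from palbociclib 100 to abemaciclib 36 (0.96 against 0.94) did so too. The remaining such steps were palbociclib 30 to vehicle for Cyp51 (0.83 against 0.68) and Msmo1 (0.42 against 0.34), and palbociclib 100 to abemaciclib 36 for Msmo1 (1.04 against 0.77). Across all 6 groups limma's F test called Msmo1 (adjusted p = 0.00287), Cyp51 (0.0177) and Insig1 (0.0178), which are 3 of 7 against 22.6% of all genes. Sqle had adjusted p = 0.0502. Leaving out ribociclib replicate A made the count 7, abemaciclib 36 replicate B 6, and ribociclib replicate B 5. Over all 14217 genes these fits called 4138, 3831 and 3165, against 3212 in the main fit.

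Ribociclib at 300 mg/kg/day raised Msmo1 and Insig1 and left wide spreads elsewhere. All 7 genes had a mean above that of vehicle, from 0.75 for Fdps to 1.86 for Msmo1, with a median of 0.98. With 2 of 7 called, the background was 3.73% of all genes in either direction and 0.999% higher. For the other 5 genes, adjusted p lay between 0.214 for Fdft1 and 0.485 for Idi1. Beside these genes, 4 of 10 T and NK cell markers (median -1.32) and 1 of 10 macrophage and dendritic cell markers (median -0.66) fell with ribociclib. Lower calls made up 2.74% of all genes there. The 7 smooth muscle markers had a median of 0.96, with 0 called in limma's fit and 3 at an unadjusted p under 0.05, against 20.2% of all genes. The part of these markers in the result was not tested. Replicate A gave the highest of the 3 ribociclib values for every enzyme. Without it the Cyp51 difference went from 0.94 to 0.21 and the Idi1 difference from 0.98 to 0.1. The highest values under the alternative settings were 1.64 for Cyp51 and 1.63 for Idi1, and neither gene was called in any of the 15. Over all genes 142 were higher and 389 lower, and centring each array on its median made that 253 and 184, with Msmo1 and Insig1 still called.

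Abemaciclib at 36 mg/kg/day gave no call. All 7 means lay above vehicle, from 0.49 for Fdft1 to 1.32 for Msmo1, with a median of 0.72 against 0.01 over all genes. In limma's fit 0 of 7 passed, where 2.08% of all genes did, and 2 of 7 (Msmo1 and Insig1) had an unadjusted p under 0.05, as did 13.8% of all genes. For the 6 enzymes, replicates A and C were high and replicate B low. The mean of the 6 enzymes stood 1.21 and 1.49 above the vehicle mean on arrays A and C and at -0.18 on array B (log2). Array B was not low in Insig1, where it was the highest of the 3 at 12.01. Array B was also the highest of the 3 in summed ileal markers (13.49 against 12.54 and 12.75 on arrays A and C) and smooth muscle markers (9.96 against 8.85 and 9.16), while its dividing cell markers summed to 9.47 against 9.46 and 10.85. In this group 5 of 10 T and NK cell markers fell (median -1.48), and 1 of 7 crypt-base stem cell markers rose (median 0.34). Over all genes 1.58% fell and 0.499% rose. The T and NK markers summed to 10.73 to 10.98 against 12.1 to 12.56 with vehicle, and the stem cell markers to 9.35 to 10.0 against 8.31 to 8.82. The part of these in the result was not tested.

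Palbociclib changed none of the 7 genes in the test at either dose. At 30 mg/kg/day the median difference was -0.42, with Idi1 at -0.91 (95% interval -2.53 to 0.71) and Cyp51 at -0.83 (-2.05 to 0.4), and 2 of 7, Cyp51 and Sqle, lay below all vehicle arrays. Non-overlapping arrays were found for 11.2% of all genes there. At 100 mg/kg/day the median was 0.15, with Cyp51 at 0.15 (-1.07 to 1.38) and Msmo1 at 0.28 (-0.62 to 1.19). In limma's fit 0 of 14217 genes passed at either dose (0.0%), while 2.51% and 7.2% had an unadjusted p under 0.05. Among the 7 genes, 0 and 1 did, the latter being Insig1 at 100 mg/kg/day. At that dose the 95% interval reached a doubling for 5 of the 6 enzymes, Fdft1 being the other (-0.91 to 0.8).

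**Figure D2:**
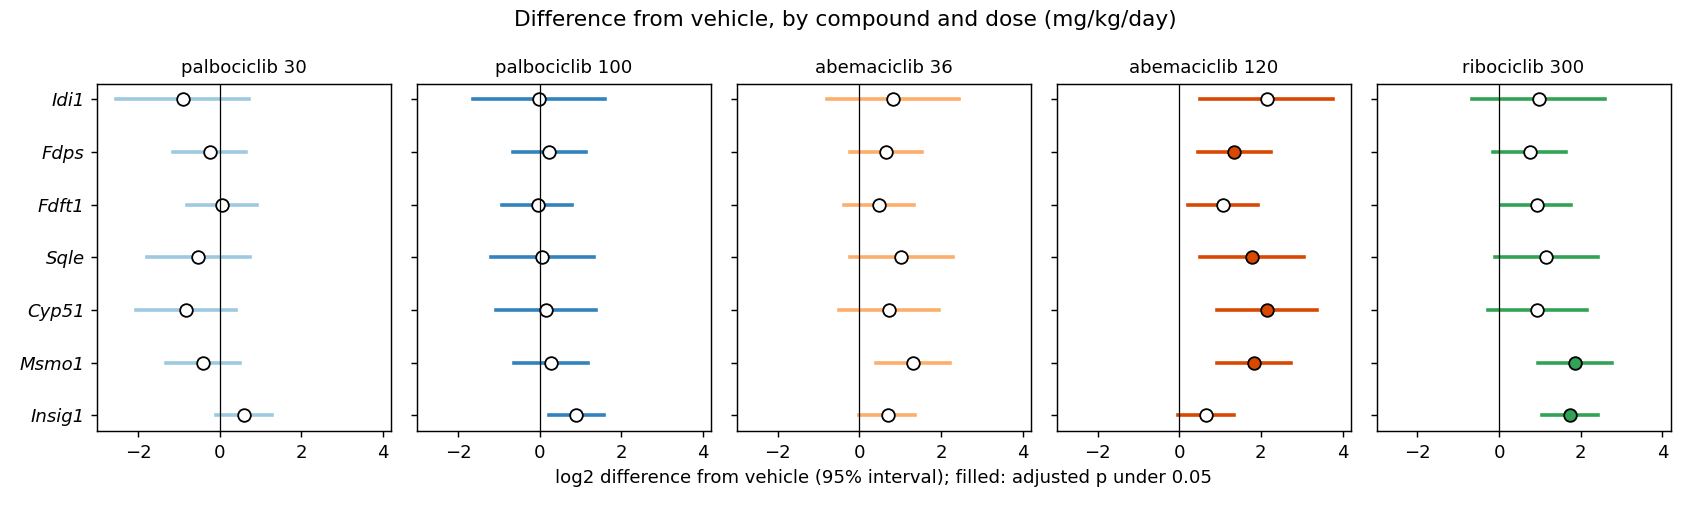
Log2 difference from vehicle for each gene with its 95% interval, 1 panel per compound and dose (mg/kg/day), filled where the adjusted p was under 0.05. With abemaciclib at 120 mg/kg/day Fdps, Sqle, Cyp51 and Msmo1 are filled, and with ribociclib Msmo1 and Insig1.

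All comparisons with vehicle share the same 3 vehicle arrays, and comparisons between treatments share arrays with them, so none is independent of the others. From 36 to 120 mg/kg/day of abemaciclib, 6 of 7 genes had a higher mean, with Cyp51 at 1.43 (SE 0.58, adjusted p = 0.159) and Insig1 at -0.03 (SE 0.32). None of the 7 passed limma's test, where 7.59% of all genes did, and 1 of 7, Cyp51, had an unadjusted p under 0.05, as did 21.0% of all genes. From 30 to 100 mg/kg/day of palbociclib 0 of 7 passed (0.0% of all genes), 0 of 7 had an unadjusted p under 0.05 where 4.35% of all genes did, and the median difference was 0.6.

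The compounds are given side by side at doses that differ. Against palbociclib at 100 mg/kg/day, abemaciclib at 120 mg/kg/day was higher in Cyp51 by 2 (SE 0.58, adjusted p = 0.0245) and in Msmo1 by 1.55 (SE 0.43, adjusted p = 0.0195), which are 2 of 7 against 18.3% of all genes in either direction and 11.4% higher. That count was 0 without palbociclib 100 replicate A or C or abemaciclib 120 replicate C, 1 without abemaciclib 120 replicate A, 0 with the actin covariate and 6 in the fit to the 2 groups alone. Over all genes the main fit called 2598, and those fits, in the same order, called 1455, 1829, 1846, 1344, 970 and 2501. Ribociclib against palbociclib 100 gave 0 of 7 (0.823% of all genes) and 3 of 7 at an unadjusted p under 0.05 (14.8%), with Msmo1 at 1.58 (adjusted p = 0.0821) and Insig1 at 0.84 (adjusted p = 0.226).

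Against ribociclib, abemaciclib at 120 mg/kg/day was lower in Insig1 by a log2 difference of -1.07 (95% interval -1.76 to -0.39, adjusted p = 0.0221), the sole call of 7 where 27.2% of all genes were called. The Insig1 arrays of the 2 groups overlapped, and the call was lost without abemaciclib 120 replicate A (adjusted p = 0.126) or ribociclib replicate B (0.108) and with the actin covariate (-0.33, adjusted p = 0.513). Without ribociclib replicate A, 5 of 7 genes were called. Over all 14217 genes that fit called 4781, against 3865 in the main fit. Msmo1 differed by -0.03 between abemaciclib 120 and ribociclib (95% interval -0.93 to 0.88) and Cyp51 by 1.21 (-0.01 to 2.43), an interval that holds both 0 and more than a doubling. Centring each array on its median moved the median of all genes in this comparison from -0.052 to -0.335 and the calls from 2442 higher and 1423 lower to 1721 and 5266. The Insig1 difference was then -1.36 (adjusted p = 0.00701). The same setting moved the median of all genes from -0.052 to -0.274 against palbociclib 100 (1623 higher and 975 lower became 1226 and 3091) and from -0.02 to -0.198 against abemaciclib 36 (685 and 394 became 533 and 781).

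The 6 enzymes went up and down together from array to array. Over the 18 arrays, which share their normalization, the 15 pairs of enzymes correlated at r = 0.81 to 0.97, with a median of 0.89. After the group means were taken out, the range was 0.69 to 0.97 and the median 0.88, so the enzymes also moved together among replicates pooled over the groups. The groups weigh unequally in this: the SD of Cyp51 was 1.43 with ribociclib, 0.97 with abemaciclib at 36 mg/kg/day and 0.04 with vehicle. Insig1 correlated with the enzymes at 0.06 to 0.48 (median 0.18), and at -0.4 to 0.21 (median -0.18) within groups. These are descriptions over arrays and carry no test.

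Single arrays show the same contrast between the enzymes and Insig1. On the ribociclib arrays the mean of the 6 enzymes stood 2.44, 0.15 and 0.7 above the vehicle mean, while Insig1 stood 1.87, 2.3 and 1.04 above its own. On the abemaciclib 120 arrays the enzyme mean stood 1.52, 1.32 and 2.31 above vehicle and Insig1 0.08, 0.73 and 1.18. On the palbociclib 100 arrays the enzyme mean was at -0.31, 0.56 and 0.08 and Insig1 at 0.9, 0.82 and 0.97. Ribociclib replicate B thus paired the highest Insig1 signal of all arrays with an enzyme mean near vehicle. That mean joins unlike enzymes: Msmo1 read 10.45 on this array, above vehicle at 8.85 to 9.09, and Cyp51 8.76, below vehicle at 9.19 to 9.26. Abemaciclib 120 replicate A paired a high enzyme mean with Insig1 near vehicle. Other measures of the ribociclib arrays differed too: replicate A had the highest summed ileal (14.81) and smooth muscle (10.74) markers of all arrays. Its dividing cell markers summed to 10.8 against 9.18 and 8.66 on replicates B and C, and its T and NK cell markers to 9.74 against 11.58 and 12.13. The actin 3′ minus 5′ value was 0.41, 0.4 and 0.9 on replicates A, B and C. Their part in the result was not tested.

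**Figure D3:**
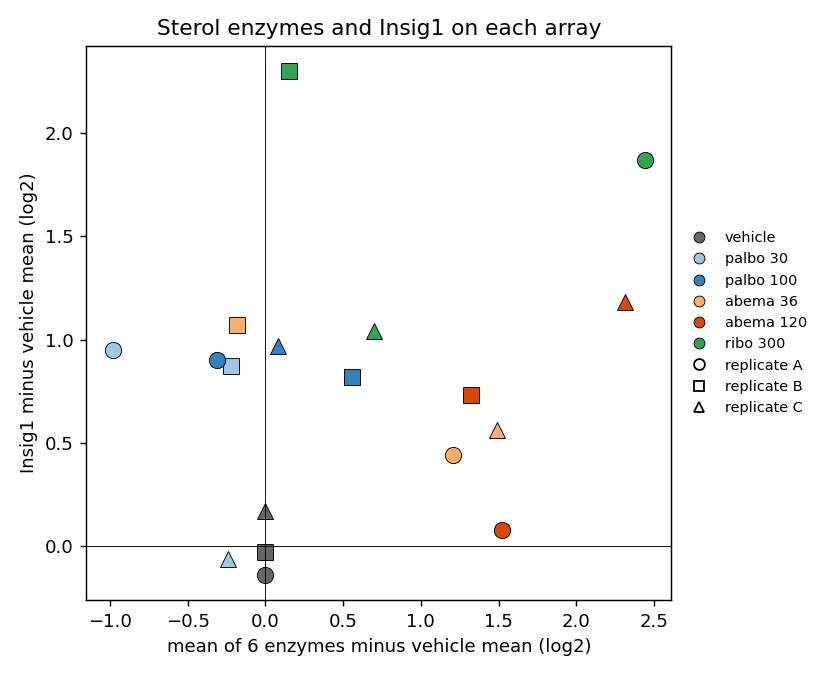
Each point is 1 array, with the mean of the 6 enzymes minus the vehicle mean on the x axis and Insig1 minus its vehicle mean on the y axis (both log2), coloured by group with replicate letters as symbols. Ribociclib replicate B lies at 0.15 and 2.3, and abemaciclib 120 replicate A at 1.52 and 0.08.

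Further enzymes of the cholesterol route rose at the higher abemaciclib dose. Of 15 further genes of the route, 13 were measured, and the others are not analysed here. Of the 13, 6 rose and 0 fell, with a median of 0.64 against -0.02 over all genes, where 9.6% of all genes rose. In the other comparisons with vehicle 0 passed limma's test, where 0.0% to 3.73% of all genes did. With abemaciclib at 36 mg/kg/day 1 of 13 had an unadjusted p under 0.05, as did 13.8% of all genes. That gene, Ggps1, was lower than vehicle (log2 difference -1.2). With palbociclib at 30 and 100 mg/kg/day and with ribociclib 0 did, against 2.51%, 7.2% and 20.2% of all genes. Acat2, which joins acetyl-CoA units at the entry of the route, read 9.41, 8.92 and 9.19 with abemaciclib and 7.68, 8.1 and 7.74 with vehicle, and rose by 1.34 (SE 0.36, adjusted p = 0.0178). Mvd, which makes the isoprenoid unit that Idi1 converts, rose by 1.09 (SE 0.31, adjusted p = 0.0213). Lss, which closes the sterol rings after Sqle, rose by 0.93 (adjusted p = 0.0467). Hsd17b7, which works beside Msmo1 in removing methyl groups, rose by 1.2 (adjusted p = 0.0292), and Ebp, the sterol isomerase, by 0.7 (adjusted p = 0.0214). The sterol reductase Lbr, named after its value was seen, rose by 0.94 (adjusted p = 0.0338).

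The members of the route that did not pass included Mvk at 0.02, Pmvk at 0.23, Sc5d at 0.12 and Ggps1 at -0.69. The sterol reductase Tm7sf2 had a lower signal than vehicle (-0.81, adjusted p = 0.0832), and against palbociclib at 100 mg/kg/day it was lower by a log2 difference of -1.44 (adjusted p = 0.00461). The count of 6 was 0 without vehicle replicate C or abemaciclib 120 replicate A, 1 without vehicle replicate A or with the actin covariate, and 2 without vehicle replicate B or abemaciclib 120 replicate C. The median difference of the 13 in these fits, in the same order, was 0.65, 0.59, 0.68, 0.73, 0.6 and 0.53, against 0.64 in the main fit. Quantile normalization of the values again gave 4 higher and 1 lower. From 36 to 120 mg/kg/day of abemaciclib, Acat2 rose by 1.25 (adjusted p = 0.0455) and Mvd by 1.08 (adjusted p = 0.0403), the 2 of 13 that passed there.

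**Figure D4:**
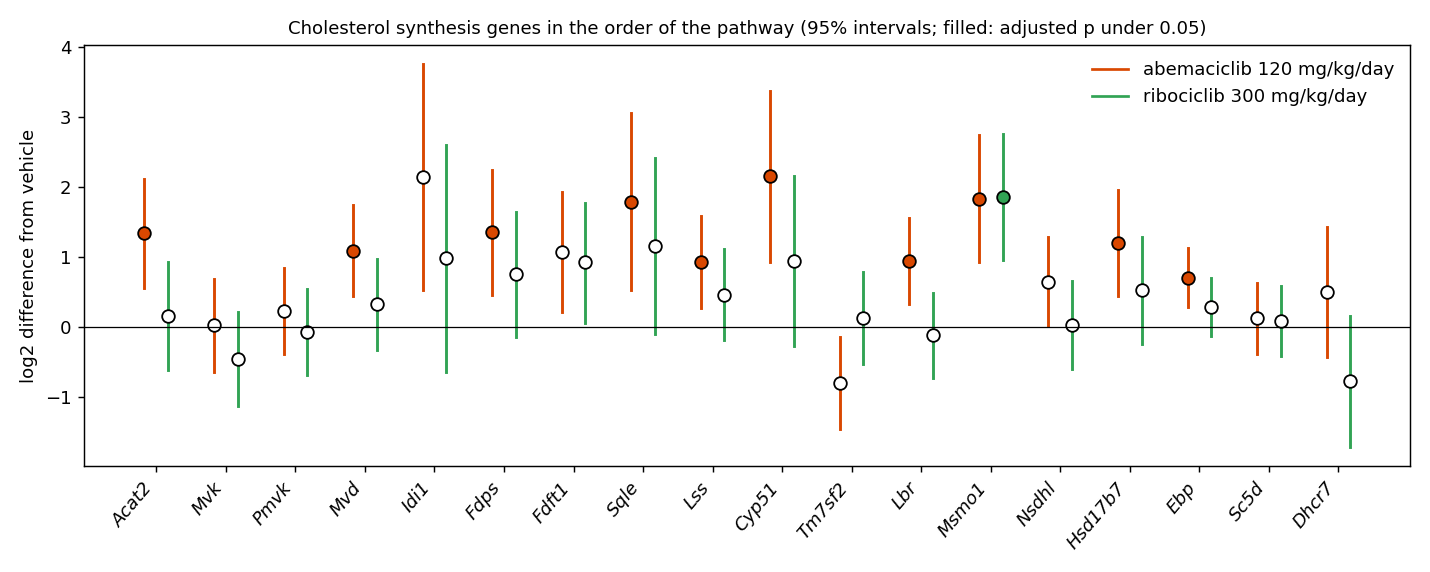
Log2 difference from vehicle (95% intervals) of 18 genes in the order of the cholesterol route, for abemaciclib at 120 and ribociclib at 300 mg/kg/day, filled where the adjusted p was under 0.05. With abemaciclib 10 of the 18 points are filled, from Acat2 at 1.34 on the left to Ebp at 0.7 on the right, and with ribociclib Msmo1 is filled at 1.86.

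Genes of SREBP itself and of the proteins that carry and cut it gave no call against vehicle. With abemaciclib at 120 mg/kg/day 0 of 6 passed limma's test, where 9.6% of all genes rose and 8.41% fell. An unadjusted p under 0.05 was found for 1, Insig2, and for 29.7% of all genes. Under 4 of the 15 alternative settings 1 of the 6, Insig2, was called lower: the mean of all probe sets, the fit to the 2 groups alone, the replicate block and the actin covariate. Srebf2, the gene of SREBP2, read 9.3, 9.02 and 9.24 against 8.95, 8.69 and 8.99 with vehicle, a difference of 0.31 (SE 0.2, adjusted p = 0.353). Srebf1 differed by 0.13 and the escort Scap by -0.06. Insig2, the relative of Insig1, read 9.13, 9.89 and 9.91 against 10.24, 10.53 and 10.74, a difference of -0.86 (SE 0.33, adjusted p = 0.0791). Insig2 arrays lay below all vehicle arrays at this dose, whereas Insig1 arrays overlapped them. Array signal of these mRNAs does not measure the processing of SREBP protein.

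Against vehicle, the genes listed under sterol uptake and trafficking and under efflux and esterification fell or did not pass. Of 9 genes listed under uptake and trafficking, 4 were measured (Stard4, Tmem97, Npc2 and Mylip), and the others are not analysed here. Mylip is a ubiquitin ligase, not itself an uptake protein, and a known target of the sterol-sensing LXR receptors. It read 6.8, 9.12 and 6.4 with abemaciclib at 120 mg/kg/day against 10.36, 10.32 and 10.52 with vehicle. Mylip fell 7.8-fold (log2 difference -2.96, SE 0.69, adjusted p = 0.00701), the sole call of 4, so its fall is not a fall of sterol uptake. Replicate B of Mylip was the least changed. Of 8 measured genes of efflux and esterification, 4 fell and 0 rose, with a median of -0.92, where 8.41% of all genes fell. The sterol exporters Abcg8 and Abcg5, which pump plant sterols and cholesterol back to the gut lumen, fell by 2.11 (adjusted p = 0.000837) and 1.62 (adjusted p = 0.0114) on the log2 scale. The genes of the sterol-sensing LXR receptors, Nr1h2 and Nr1h3, fell by 1.38 (adjusted p = 0.00104) and 0.97 (adjusted p = 0.037). Without abemaciclib 120 replicate A, 2 of the 4 passed. Abcg5 and Abcg8 are expressed in mature enterocytes, and the enterocyte markers summed to 16.67 to 17.07 with abemaciclib against 17.06 to 17.17 with vehicle. By limma's test 1 of the 11 measured enterocyte markers fell and 0 rose, with a median of -0.18. An unadjusted p under 0.05 was found for 5 of the 11 and for 29.7% of all genes. The part of enterocyte content in these falls was not tested.

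With ribociclib no gene of efflux and esterification was called. Abcg8 differed from vehicle by 0.21 (SE 0.36, adjusted p = 0.772) and Abcg5 by 0.05 (SE 0.41, adjusted p = 0.958). None of the 8 passed limma's test, where 3.73% of all genes did. An unadjusted p under 0.05 was found for 1 of the 8 and for 20.2% of all genes. In the direct comparison abemaciclib at 120 mg/kg/day was lower than ribociclib in Abcg8 (-2.32, adjusted p = 0.000633), Abcg5 (-1.67, adjusted p = 0.00764) and Nr1h2 (-1.11, adjusted p = 0.00397).

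Fatty acid synthesis, driven in part by the related factor SREBP1, rose in 5 of 15 genes and fell in 0 with abemaciclib at 120 mg/kg/day, with a median of 0.81, where 9.6% of all genes rose and 8.41% fell. Fasn, fatty acid synthase, read 9.85, 8.91 and 8.94 against 6.62, 6.92 and 6.73 with vehicle and rose 5.57-fold (adjusted p = 0.000957). Acaca, the carboxylase that commits carbon to fatty acids, rose 2.69-fold (adjusted p = 0.00938). The desaturases Fads1 and Fads2 rose by 0.97 (adjusted p = 0.0111) and 0.51 (adjusted p = 0.025), and Mid1ip1, an activator of the carboxylase named after its value was seen, rose by 1.09 (adjusted p = 0.03). Without abemaciclib 120 replicate A, 1 of the 15 passed, without vehicle replicate B or C 3 did, and with the actin covariate 2 did.

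Fasn differed between compounds. On ribociclib replicate A, where the enzyme mean stood 2.44 above vehicle, Fasn read 7.44, and on replicates B and C 5.99 and 6.06. With ribociclib Fasn differed from vehicle by -0.26 (adjusted p = 0.763), and 0 of the 15 genes of the list passed in limma's fit, where 3.73% of all genes did. An unadjusted p under 0.05 was found for 2 of the 15 and for 20.2% of all genes. Against ribociclib, abemaciclib at 120 mg/kg/day was higher in Fasn by 2.74 (adjusted p = 0.000654). By the same test 6 of 15 genes were higher and 1 lower, where 17.2% of all genes were higher and 10.0% lower.

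Genes outside the list that followed the 7 most closely over the 18 arrays were ranked by their correlation with the members' mean. The 6 highest were Taf4b (r = 0.87), Hsd17b7 (0.864), Lss (0.857), Nab1 (0.856), Yrdc (0.855) and Clec2d (0.853). Hsd17b7 and Lss are enzymes of the same route. Taf4b had a mean signal of 3.97, below the array medians. Of the other listed genes, Nsdhl (0.81), Ebp (0.81), Mvd (0.79) and Srebf2 (0.75) were also high, while Mylip was at -0.82 and Insig2 at -0.67. The correlations share the normalization of the arrays and the treatment groups, and carry no test.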

How the data were processed

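RNA of 18 jejunal scrapings was hybridised to Affymetrix rat arrays. The authors deposited log2 signals, 1 per probe set and array, and per the submitters' processing notes the tools were Transcriptome Analysis Console, Affymetrix Expression Console and the RMA method, with no versions or settings given in the sources used here. RMA as usually run equalises signal between arrays, so a change in total RNA per cell would not show. Of 31099 probe sets, 57 were controls, 20826 had 1 gene symbol in the platform annotation, 436 several and 9780 none. Symbols were checked against RefSeq through Entrez identifiers (20758 matched, 0 changed). A gene was represented by its probe set with the highest mean, which gave 14217 genes.

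Groups were compared with limma 3.58.1 in R 4.3.3, with 1 mean per group over all 18 arrays and 12 residual degrees of freedom. Variances were moderated by eBayes along a trend on mean signal, and p-values were adjusted by Benjamini-Hochberg over all genes at a threshold of 0.05. The fit was tested on simulated data. The members and gene lists were chosen with earlier results of these data known. Beyond the members and 9 genes of the pathway always named, up to 4 genes per list and comparison with vehicle were named by smallest p. Marker sums are sums of the linear signals of a list, given as log2. Promoter sequences are from RefSeq, GRCr8.

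Alternatives were another normalization, a filter on dim genes (under the 30th percentile), other treatments of probe sets, variance model and samples, the replicate letter as a block, an actin covariate for RNA quality, and leaving out each array.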

Additional observations from a re-analysis of the deposited data

How the results depend on the processing

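No difference that passed changed sign under the alternatives run. The count of genes called with abemaciclib at 120 mg/kg/day against vehicle (4) was 6 in the fit to the 2 groups alone, 5 after quantile normalization again, 2 with every probe set as a feature of its own, 2 with the actin covariate, and 1 to 3 when single arrays were left out. With ribociclib against vehicle (2) it was 0 in the fit to the 2 groups alone and 1 to 2 when single arrays were left out. With abemaciclib at 36 mg/kg/day (0) it was 0 to 1 when single arrays were left out. For abemaciclib 120 against ribociclib (1) it was 0 in the fit to the 2 groups alone, 0 with the actin covariate and 0 to 5 when single arrays were left out. For abemaciclib 120 against palbociclib 100 (2) it was 6 in the fit to the 2 groups alone, 0 with the actin covariate and 0 to 2 when single arrays were left out. Across the 6 groups (3) it was 2 to 7 when single arrays were left out. Calls over all genes moved as well. With abemaciclib at 120 mg/kg/day against vehicle they numbered 2560, and 1349 to 2497 when single arrays were left out. With ribociclib against vehicle they numbered 531, with 29 in the fit to the 2 groups alone and 120 to 1317 when single arrays were left out. Leaving out an array also leaves fewer residual degrees of freedom. Otherwise the cause was not tested.

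Arrays of the same replicate letter were slightly more alike than arrays of other letters. After group means were taken out, arrays of the same letter correlated at a median of 0.05 over 45 pairs (-0.31 to 0.59), and 19 pairs exceeded 0.1. Arrays of other letters correlated at a median of -0.04 over 90 pairs (-0.53 to 0.43), and 27 pairs exceeded 0.1. With the letter as a replicate block, 4 genes were called with abemaciclib at 120 mg/kg/day against vehicle. Centring each array on its median moved the median of all genes in that comparison from -0.021 to -0.128, and 4 of the 7 cholesterol genes were called.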
